A study of Drosophila melanogaster with 4 samples.

Results

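The regions described here are the HP1b-enriched clusters on chromosome 4, on the 6 sequences the fly assembly sets apart as heterochromatin and on the unplaced sequence U. The former are named by chromosome: XHet, YHet, 2LHet and 2RHet, and likewise 3LHet and 3RHet. They were taken as each row of the combined list for the replicate set that is typed as enrichment and lies on 1 of these 8 sequences, which gave 303 of 7807 clusters. Of these, 117 lay on chromosome 4, 103 on the 6 heterochromatin sequences and 83 on U. In the lists of the separate libraries, 203 of 6687 clusters (replicate 1) and 205 of 6471 (replicate 2) lay on them. The choice used the sequence name and no measured value.

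The material was head nuclei of wild-type Drosophila melanogaster of the strain Oregon-R (Oregon-R-modENCODE), labelled as mixed adults and raised in population cages. Chromatin immunoprecipitation followed by sequencing (ChIP-seq) used the HP1b antibody Q4114 in 2 libraries, each with a like-numbered input library of chromatin that was not immunoprecipitated. No treatment or mutant was compared, so the comparisons are between sequences within a library, with the 2 replicates as the error. Heads of many flies were pooled, so a site bound strongly in few cells and a site bound weakly in many cannot be told apart. Whether each library had its own batch of flies is not in the labels, and their spread may therefore be technical. The lists give positions and a score per cluster but no reads, so depth is unknown.

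HP1b belongs to the heterochromatin protein 1 family, whose chromodomain can bind histone H3 methylated at lysine 9 and whose chromoshadow domain forms dimers and recruits other proteins. Of its fly relatives, HP1a is the classical protein of pericentric heterochromatin and HP1c is found mainly in euchromatin, while HP1b has been seen in both. Chromosome 4 is the small dot chromosome of the fly: its genes are expressed although they lie among repeats, and its arm carries HP1a and the chromosome-specific protein POF. The Het sequences are pieces of repeat-rich pericentric or Y-linked heterochromatin that were assigned to a chromosome but not joined to its arm. U holds pieces with no assigned chromosome and is not heterochromatin by definition.

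Within this set, chromosome 4 was covered far more densely than the heterochromatin sequences and U. HP1b clusters lay over 19.7% of chromosome 4 in replicate 1 and 22.2% in replicate 2. The next in order was XHet, with 6.04% and 8.95%, followed by 2LHet with 4.99% and 5.00%. On 3LHet the values were 2.86% and 3.40%, on 2RHet 2.62% and 3.17%, on 3RHet 1.80% and 1.74%, on U 1.20% and 1.21%, and on YHet 0.579% and 0.577%. Each neighbouring pair in this order was apart in both replicates except 3LHet and 2RHet, whose ranges overlapped. Chromosome 4 had 1.52 ± 0.177 times the coverage of the 4 long autosomal arms and 1.18 ± 0.127 times that of X (ratios within a library, SD, n = 2). The 6 heterochromatin sequences together had 0.199 ± 0.0265 times the autosomal coverage (SD, n = 2), below it in both replicates.

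**Figure D1:**
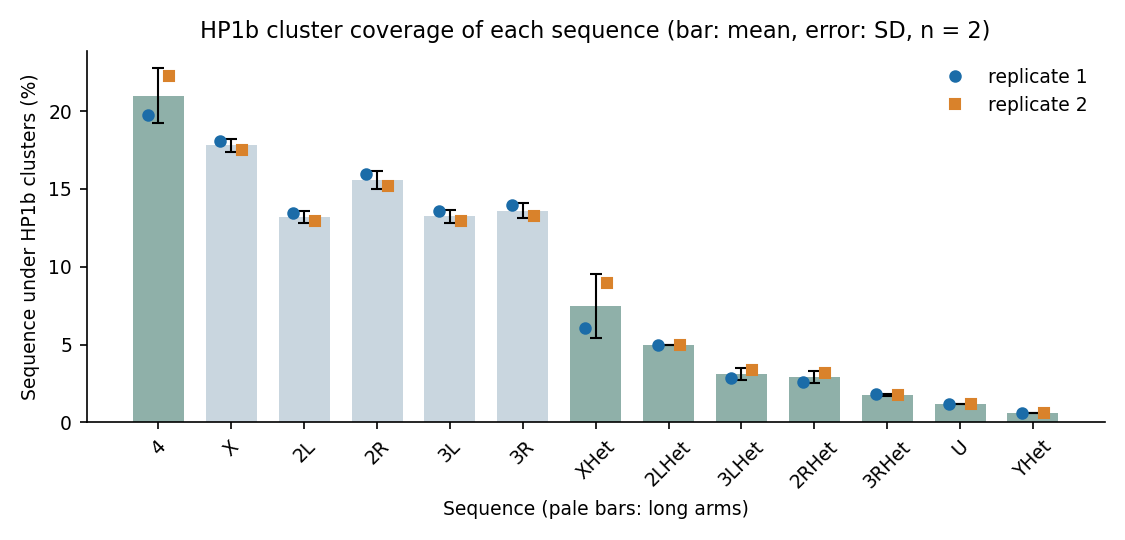
Share of each sequence under HP1b clusters (percent, y axis) for the 8 sequences described and the 5 long arms (pale bars); bars are means of 2 replicates, error bars SD, points the replicates. Chromosome 4 stands above each long arm in both replicates, and XHet, at 6.04% and 8.95%, is the highest of the sequences below the arms.

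The excess of chromosome 4 over the autosomal arms came with both more and wider clusters. Their number per Mb was 1.17 ± 0.0101 times the autosomal value and their mean width 1.29 ± 0.140 times (SD, n = 2). Against X, the number per Mb had a ratio of 0.988 in replicate 1 and 0.989 in replicate 2, but of 1.17 in the combined list, so its direction depended on the list. Chromosome 4 clusters averaged 3213 bp (replicate 1) and 3708 bp (replicate 2), while those of X averaged 2911 and 2888 bp. Clusters of 5 kb or wider numbered 15 of 83 in replicate 1 and 19 of 81 in replicate 2, which is 18.1% and 23.5%. Over all sequences the share was 6.40% and 6.41%. In the combined list 23 of 117 were this wide (19.7%), against 7.20% over the whole list. These wide clusters held 36.2% and 42.9% of the cluster sequence of chromosome 4, against 15.1% and 14.8% on the 5 long arms. Wide clusters were not particular to chromosome 4. On the 6 heterochromatin sequences 20.0% and 22.7% of clusters were this wide and held 41.9% and 43.9% of the cluster sequence. Mean width there was 1.31 ± 0.0776 times the autosomal value (SD, n = 2). This did not hold for each of them: XHet and YHet, with few clusters, had none this wide in either replicate. Their mean widths were 0.949 ± 0.0449 and 0.750 ± 0.00354 times the autosomal value (SD, n = 2). On 2LHet, 2RHet, 3LHet and 3RHet the mean ratios ran from 1.27 to 1.73.

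Along chromosome 4, HP1b clusters were present in each 100 kb window but at very different density. The chromosome was divided into 14 windows counted from the start of the sequence, which is the centromere side, and the last window is 51.857 kb long. Window 13 (1200001 to 1300000) had the highest coverage, 30.3% in replicate 1 and 34.965% in replicate 2. Window 11 (1000001 to 1100000) followed with 29.5% and 29.9%. With clusters at or above the median score window 11 came first, with a mean of 24.5% against 23.1% in window 13, and with clusters of at least 2 kb likewise, with 27.9% against 27.0%. Window 7 had 24.4% and 27.9%, window 1 had 25.4% and 26.4%, and window 14, at the distal tip, had 26.9% and 23.04%. The last 3 overlapped in their replicate ranges. At the other end, window 8 (700001 to 800000) had 6.62% and 5.60%, window 9 had 12.5% and 13.9%, and window 12 had 14.4% and 15.6%. The lowest windows were each separated from the next in both replicates.

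The windows between these extremes were ordered in part. Means ran from 17.6% in window 6 to 23.3% in window 10. Of the 13 neighbouring pairs in the order of means, 5 were apart in both replicates, all at the high or low end. Among windows farther apart in the order, window 6 (18.1% and 17.1%) lay below windows 3, 5 and 10 in both replicates, with no overlap. Window 2 (100001 to 200000) differed most between the libraries, with 13.5% in replicate 1 and 23.7% in replicate 2. Replicate 2 was higher in 11 of the 14 windows, and the exceptions were windows 6, 8 and 14. Between replicates, window coverage had a Pearson's r of 0.890 and a Spearman's rho of 0.833, over 14 neighbouring windows of the same chromosome and libraries. Coverage was above that of the 4 long autosomal arms in both replicates in 11 of 14 windows, against 46.3% of 1189 windows of the 5 long arms. Only window 8 was below it in both replicates, and windows 2 and 9 were above it in replicate 2 alone.

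**Figure D2:**
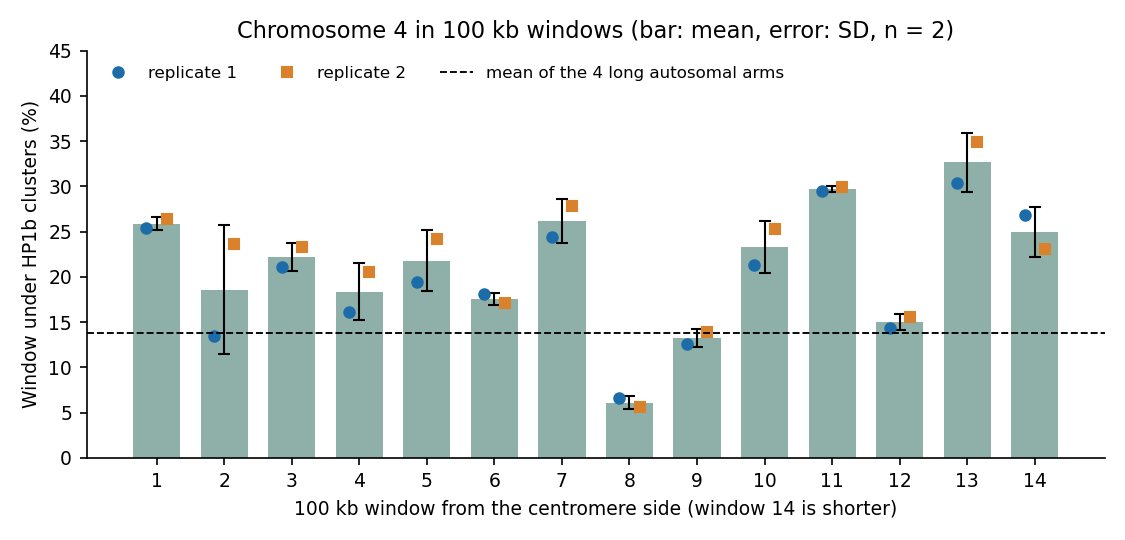
Share of each 100 kb window of chromosome 4 under HP1b clusters (percent, y axis), by window number from the centromere side; bars are means of 2 replicates, error bars SD, points the replicates, and the dashed line is the mean coverage of the 4 long autosomal arms. Windows 13 and 11 are highest and window 8 lowest in both replicates, and window 2 shows the widest spread.

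Counted over the whole sequence, coverage of the centromere-side and distal parts of chromosome 4 showed no shared direction in the replicates. From position 1 to 675928, coverage was 20.9% ± 2.55, and from 675929 to the end it was 21.01% ± 0.974 (SD, n = 2). The direction differed between the libraries: replicate 1 had 19.1% and 20.3%, replicate 2 had 22.7% and 21.7%. The centromere-side part includes the first 61075 bp, which held no cluster in either replicate and lower its coverage. The parts were not compared without this empty start, so the direction may depend on counting it. The rank of the clusters did differ. The authors' score was expressed as a percentile within the whole list of its library, because its scale is not given. On the centromere side the median percentile was 38.5 (replicate 1) and 42.9 (replicate 2), and in the distal part it was 57.0 and 59.7. Clusters of the distal part ranked higher in each library, and the ranges of the parts did not overlap.

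The densest stretch of chromosome 4 lay close to its centromere-side end. The first 50 kb held no cluster in either replicate, and the first cluster started at 61181 (replicate 1) and 61076 (replicate 2). The next 50 kb, from 50001 to 100000, had a coverage of 50.8% (replicate 1) and 52.8% (replicate 2), the highest of all 50 kb windows of the chromosome. This stretch holds 4 clusters of the combined list that lie 1 kb or less apart and span 61065 to 91476, a run of 30.4 kb. In the separate libraries the longest such run was 18.9 kb from 72185 (replicate 1) and 18.8 kb from 72433 (replicate 2), with 3 clusters in each. Away from the chromosome ends, the 50 kb from 750001 to 800000 held no cluster in either replicate. It lies within the longest cluster-free interval of the chromosome, which ran from 725638 to 807229 in replicate 1 (81.6 kb) and from 719505 to 807172 in replicate 2 (87.7 kb). The empty start of the sequence aside, the next longest interval ran from 529735 to 577079 in replicate 1 (47.3 kb). In replicate 2 it ran from 529624 to 577314 (47.7 kb). Both intervals thus recurred in both libraries.

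In the replicate lists the median gap between clusters was longer on chromosome 4 than on the long arms, although coverage was higher. The number of clusters per Mb was also higher, at 61.4 and 59.9 in the replicates against 54.5 and 52.6 on the arms. Neighbours on chromosome 4 lay a median of 9341.5 bp apart (replicate 1) and 8817.5 bp (replicate 2), and those on the 5 long arms 6375 and 6494 bp. Gaps of 5 kb or less made up 26 of 82 (31.7%) and 23 of 80 (28.75%), against 43.2% and 42.9% over all sequences. A single gap over 50 kb occurred in each replicate on chromosome 4, against 485 of 6479 and 497 of 6261 gaps on the arms. In the combined list, which adds many narrow clusters, the direction was opposite, with a median gap of 5209 bp on chromosome 4 and 5528 bp on the arms. The shorter median gap of the arms thus holds for the replicate lists and not for the combined list. It does not mean more clusters per Mb on the arms.

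The highest-scoring regions of chromosome 4 were spread along its length and did not reach the top of the genome-wide list. The first by score lay from 978046 to 982842 (4.80 kb), with a score of 2.82 at percentile 96.3 of the combined list. Its replicate clusters stood at percentiles 95.9 and 96.7 of their lists. The second lay from 807176 to 810679, at percentile 95.5, and is the first cluster after the long empty interval. The third, from 463392 to 468055, stood at percentile 93.1, and the next, from 148077 to 153857, at 92.6. These belong to the 10 highest that each replicate covered over 50% or more of the region. The other 6 lay, by start, at 1045478, 886595, 225592, 713905, 61065 and 689780, with percentiles from 86.1 to 92.5. They were 3.51 to 9.64 kb wide. For each of the 10, the percentile was higher in replicate 2 than in replicate 1. Above the 90th percentile of their list stood 2 of 83 chromosome 4 clusters in replicate 1 and 9 of 81 in replicate 2. These shares were 2.41% and 11.1%, against 10.2% and 10.1% on the 5 long arms, so the direction differed between libraries. In the combined list the share was 6.84%, against 10.2% on the arms.

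The widest regions of chromosome 4 overlapped that set in 2 of 10. They were the cluster from 1045478 to 1055113 (9.64 kb) and the cluster from 61065 to 68935 (7.87 kb). The widest of all, from 79640 to 91476 (11.8 kb), was made of 2 clusters in each replicate list. The next after 1045478 spanned 1233443 to 1242551 (9.11 kb), with 66.2% of its length under replicate 1 clusters and 84.5% under replicate 2 clusters. It was followed by 950301 to 958936 (8.64 kb), which was a single cluster in each replicate. The other 5, of 7.12 to 8.16 kb, started at positions 1070986, 1275219, 924346, 71814 and 501322. The region at 1275219 was 1 cluster in replicate 2 and 3 clusters in replicate 1. Of the 117 combined clusters on chromosome 4, 5 joined several replicate 1 clusters and 3 several replicate 2 clusters. Over the whole combined list 2.00% and 2.01% did so, and these counts are too small to read a difference from.

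Rank by score and width were tied on chromosome 4 and the heterochromatin sequences but much less on U. Spearman's rho between width and score on chromosome 4 was 0.827 in replicate 1 and 0.793 in replicate 2, on the 6 heterochromatin sequences 0.729 and 0.720, and on the long arms 0.747 and 0.749. On U it was 0.136 over 50 clusters and 0.283 over 49. These are correlations across clusters of 1 library, which are not independent samples. At a width of 2 to 3 kb, chromosome 4 clusters had a median percentile of 39.1 and 34.5 in the replicates, against 54.8 and 56.1 on the autosomal arms and 56.8 and 56.3 on X. At 3 to 5 kb the medians were 72.8 and 74.6 on chromosome 4 and 68.3 and 69.6 on the autosomal arms. The lower rank of chromosome 4 in the 2 to 3 kb class exceeded the spread between replicates. Clusters of U narrower than 2 kb stood at 46.8 and 38.8, against 9.94 and 9.62 on the autosomal arms and 23.9 and 22.1 on X.

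**Figure D3:**
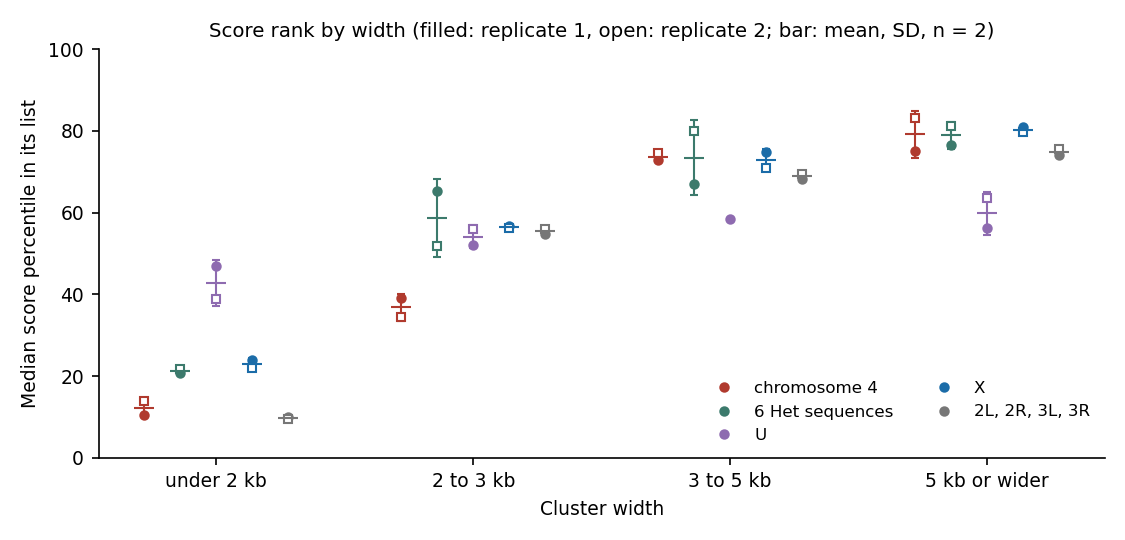
Median percentile of the authors' score within the list of the library (y axis) by cluster width class, for chromosome 4, the 6 heterochromatin sequences, U, X and the 4 long autosomal arms; filled points are replicate 1, open points replicate 2, bars the mean and error bars SD (n = 2). Chromosome 4 is low in the 2 to 3 kb class, at 39.1 and 34.5, and U is high below 2 kb, at 46.8 and 38.8; U has 4 clusters of 3 to 5 kb in replicate 1 and none in replicate 2, so no mean is drawn there.

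The heterochromatin sequences carried few clusters, and many 100 kb windows of 2RHet, 3LHet and 3RHet held none in either replicate. Whether more windows were empty than random placement of so few clusters would leave was not tested. Of the 100 kb windows, 15 of 33 on 2RHet, 15 of 26 on 3LHet and 22 of 26 on 3RHet held no cluster in either replicate. Filled windows were nearly the same in both libraries: 17 on 2RHet, 11 on 3LHet and 4 on 3RHet were filled in both, and 1 window of 2RHet was filled in a single library. In the replicate lists, median percentiles of score were 61.8 and 63.5 for the 6 pooled sequences, above the 48.2 and 48.7 of the autosomal arms. In the combined list the medians were close, at 51.1 and 49.0. Each single sequence was above the autosomal arms in replicate 1. In replicate 2, 2LHet (41.7) and XHet (43.3) were below them, and 2RHet, 3LHet, 3RHet and YHet were above. In the combined list only XHet was below, at 37.1. Clusters of the pooled sequences were sparse but did not rank low.

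On 3RHet, clusters occurred beyond position 1704698 of 2517.507 kb and nowhere before it. Their span was 676.4 kb in replicate 1 and 674.8 kb in replicate 2. The densest window, from 1800001 to 1900000, was covered over 17.7% and 14.7%. This is above the coverage of the autosomal arms in both replicates, as were 46.3% of the 100 kb windows of the 5 long arms. Mean coverage of those windows had a median of 13.6% and a 90th percentile of 28.7%. The strongest 3RHet region lay from 2348292 to 2350834, with a score of 2.72 at percentile 95.4 of the combined list. It stood at percentile 79.5 in replicate 1 and 98.1 in replicate 2. The widest, from 1804828 to 1814179 (9.35 kb), was a single cluster in each replicate.

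On 3LHet, 2 long intervals without clusters split the sequence. They ran from 739557 to 1394328 (654.8 kb) and from 1571690 to 2188849 (617.2 kb) in replicate 1. In replicate 2 they ran from 739391 to 1394185 and from 1571917 to 2188977. The highest-scoring member of all 6 heterochromatin sequences lay at the end of the first interval, from 1394243 to 1399198, with a score of 3.17 at percentile 98.4. Its clusters stood at percentiles 96.1 and 98.8 in the replicates. The window from 600001 to 700000 was the most covered, at 12.5% and 13.6%. The widest 3LHet region, from 2390977 to 2401971 (11.0 kb), was 2 clusters in each replicate.

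On 2RHet, the most covered window lay near the end of the sequence, from 3100001 to 3200000, with 14.7% and 16.1%. The region of highest score lay from 2895626 to 2902887 (score 2.21, percentile 88.7), and the widest from 470431 to 480929 (10.5 kb), a single cluster of 10194 bp in replicate 1 and 10197 bp in replicate 2. The longest empty interval was 486.8 kb in replicate 1 and 486.5 kb in replicate 2. The interval before it, of 432.9 and 432.3 kb, is separated from it by 1 cluster, from 2283225 to 2285766 in the combined list, at percentile 88.3. Replicate 1 covered 99.96% of it and replicate 2 99.5%.

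The 3 short sequences differed in pattern. On XHet the clusters lay within 55953 to 85913 in replicate 1 and 49286 to 85907 in replicate 2, so the first 100 kb held the 5 and 7 clusters of the libraries. The median gap there was 2184.5 and 1464 bp, against 5087 and 5123 bp on X. The region from 82555 to 85926 had both the highest score (2.48, percentile 92.8) and the largest width (3.37 kb) of XHet. On 2LHet the strongest region lay from 30621 to 36020 and the widest from 164770 to 176413 (11.6 kb), and each was found in both replicates. YHet held 1 cluster in each replicate, of 2011 and 2004 bp, at 304280 to 306290 and 304304 to 306307. The combined list had 3 further YHet clusters of 1255 to 1307 bp that neither replicate list held.

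Set beside the 1 Mb of arm next to the same centromere, the heterochromatin sequences were lower on 3 chromosome arms and not on the other two. On 3R, coverage was 14.5% ± 0.422 in the adjoining 1 Mb and 1.77% ± 0.0449 on 3RHet (SD, n = 2). On 2R the values were 11.5% ± 0.624 and 2.89% ± 0.390, and on 2L 11.8% ± 1.11 and 4.99% ± 0.00709 (SD, n = 2). These differences exceeded the spread between replicates. On 3L the adjoining 1 Mb had 2.82% ± 0.892 and 3LHet 3.13% ± 0.381 (SD, n = 2): the Het value was higher in replicate 1 and lower in replicate 2. On X, the adjoining 1 Mb had 6.25% in replicate 1 and 5.94% in replicate 2, and XHet had 6.04% and 8.95%, so the direction again differed between replicates. Lengths include assembly gaps, and how reads matching several places were treated is not given. Their part in the low coverage of heterochromatin was not tested.

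Clusters of the separate libraries met a counterpart on chromosome 4 and the heterochromatin sequences at rates close to or below the rest. Of replicate 1 clusters, 71 of 83 on chromosome 4 (85.5%), 64 of 70 on the heterochromatin sequences (91.4%) and 37 of 50 on U (74.0%) shared 1 bp or more with a replicate 2 cluster. Over all sequences the share was 89.7%. In the other direction the counts were 66 of 81 (81.5%), 62 of 75 (82.7%) and 35 of 49 (71.4%), against 92.8% over all sequences. Unmatched clusters on chromosome 4 ranked low, with median percentiles of 10.4 and 21.2 against 58.0 and 63.5 for matched ones. On U the order differed between libraries: unmatched clusters had medians of 60.4 and 44.4, against 52.7 and 54.8 for matched ones, and reached percentile 99.4 in replicate 1.

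Matched clusters on chromosome 4 and the heterochromatin sequences were wider and ranked higher in replicate 2. Among 60 pairs on chromosome 4, each matched only to the other, 51 were wider in replicate 2, and 50 stood at a higher percentile. Over all sequences, 39.0% of 5705 pairs were wider and 42.6% stood higher in replicate 2. On the heterochromatin sequences 39 of 52 pairs were wider and 42 stood higher. The median gain on chromosome 4 was 238.5 bp of width and 7.46 percentile points, and on the heterochromatin sequences 177.5 bp and 6.19 points. On the long arms the medians were -31 bp and -1.25 points, and on U 2 bp and -5.06 points. By sequence, 17 of 21 pairs on 2RHet, 15 of 16 on 3LHet and 7 of 7 on 3RHet stood higher, but only 2 of 5 on XHet did, and the YHet pair stood lower. Each direction rests on 1 library against another, so it has no replicate check.

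Cluster edges lay farther apart between replicates on chromosome 4 and the heterochromatin sequences than on the arms, with U nearer the arms. Between paired clusters, the median distance between starts was 98.5 bp and between ends 134.5 bp on chromosome 4. On the heterochromatin sequences these distances were 143 and 129.5 bp, on U 55 and 78 bp, and on the 5 long arms 45 bp each. The distances are absolute and were not separated from the greater width in replicate 2.

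**Figure D4:**
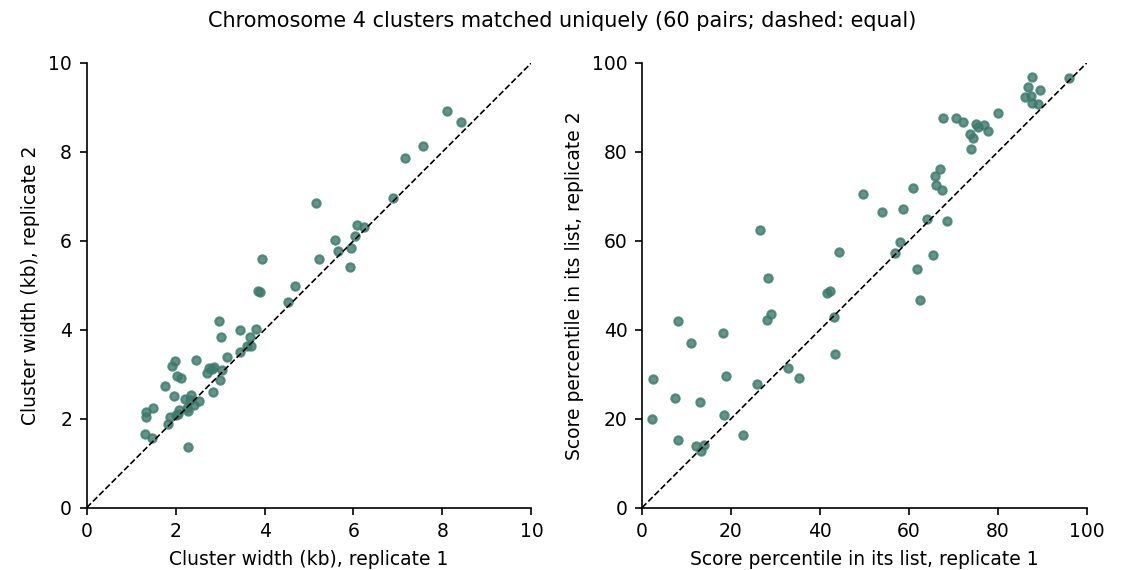
The 60 chromosome 4 clusters matched uniquely between replicates: width in kb (left) and percentile of the authors' score within its list (right), replicate 1 on the x axis and replicate 2 on the y axis; the dashed line marks equal values. Most points lie above the line, 51 of 60 for width and 50 of 60 for percentile.

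The combined list was less often backed by the replicate lists on these sequences. Of its chromosome 4 clusters, 65 of 117 (55.6%) overlapped clusters of both replicates, and of those on the heterochromatin sequences 60 of 103 (58.3%). On U the count was 35 of 83 (42.2%). Over the whole combined list the share was 75.0%. Clusters found in neither replicate numbered 27 on chromosome 4 (23.1%), 27 on the heterochromatin sequences (26.2%) and 24 on U (28.9%), against 11.0% over the whole list. Clusters backed by replicate 1 alone were 11 on chromosome 4, 3 on the heterochromatin sequences and 12 on U, and those backed by replicate 2 alone were 14, 13 and 12. Over the whole list 8.25% were backed by replicate 1 alone and 5.69% by replicate 2 alone. For replicate 1, the 9.40% of chromosome 4 was near the general share, with 2.91% on the heterochromatin sequences and 14.5% on U. For replicate 2, the shares were above the general one, at 12.0% on chromosome 4, 12.6% on the heterochromatin sequences and 14.5% on U.

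Unbacked clusters on U had a higher median score percentile than those on the other sequences. Of the 27 on chromosome 4, 18 had less than 1301 bp, the smallest width in either replicate list, as did 14 of 27 on the heterochromatin sequences and 16 of 24 on U. Over the whole list 52.9% of 862 unbacked clusters were this narrow, and the share on the heterochromatin sequences was near it. Their median percentile was 19.6 on chromosome 4, 34.0 on the heterochromatin sequences and 59.8 on U, against 19.2 on the long arms. The highest-scoring member of U, from 9278404 to 9279404 with a score of 3.20 at percentile 98.5, was 1001 bp wide and overlapped no cluster of either replicate. The highest unbacked member of chromosome 4 was likewise 1001 bp wide, from 933094 to 934094, at percentile 76.3. Low scores were frequent among chromosome 4 members of the combined list but not of each replicate list. In the combined list 42 of 117 (35.9%) stood below the 25th percentile and 24 (20.5%) above the 75th, against 25.0% each over the list. In replicate 1 the shares were 30.1% below and 19.3% above, and in replicate 2 they were 25.9% and 27.2%. The widest member of U, from 1097782 to 1109073 (11.3 kb), was found in both replicates at percentile 54.6 of the combined list.

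**Figure D5:**
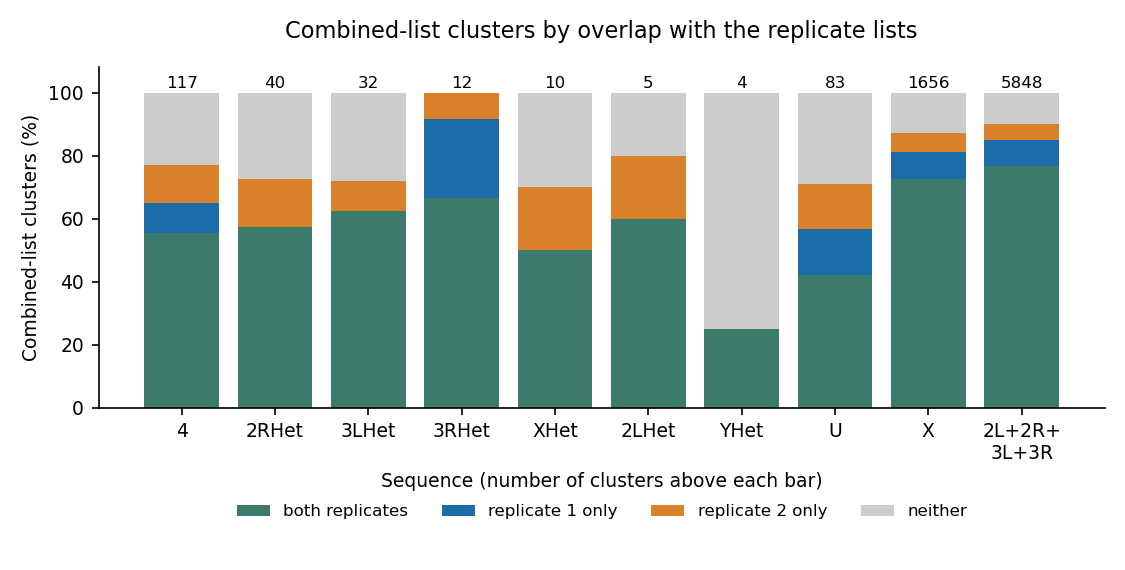
Combined-list clusters (percent, y axis) that overlap clusters of both replicates, of 1 replicate or of neither, for each sequence described and, for comparison, X and the 4 long autosomal arms together; the number of clusters stands above each bar. The share found in both is 55.6% on chromosome 4 and 42.2% on U, below that of X and the autosomal arms, and bars of 12 clusters or fewer rest on few regions.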

How the data were processed

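HP1b ChIP-seq of fly head nuclei was analysed from 3 lists of clusters deposited by the authors, 1 per ChIP library and 1 for the replicate set. The sources used here do not give the caller, its threshold, the read filters or the making of the last list. The submitters' processing notes name Bowtie 0.12.7, and positions are on FlyBase release 5, per the file headers. The score per cluster is the authors' own, of unstated scale, and served here to describe and rank clusters within a list. Per the file headers and values, starts and ends are other columns, in bp. No list of the inputs alone was used here.

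Samples were grouped by title. Coverage is the share of the length in the file headers under clusters. Values are given per replicate or as mean ± SD (n = 2), with no test, since there is 1 group of 2 libraries. Unique pairs are clusters that overlap each other and no other cluster of the other list. The regions named are the 10 highest by score and 10 widest of chromosome 4 that each replicate covered over 50% or more of the region, and the strongest and widest of each other sequence. Those named besides (runs, empty intervals, the 2RHet cluster between 2 intervals, the unbacked chromosome 4 cluster, 50 kb windows) were chosen after their values were seen, as were the width classes, the pairs and the adjoining 1 Mb. The members and comparisons were chosen with earlier results of these data known. Alternatives were another list, a score or width minimum, stricter overlap, other windows and splits, joined clusters and each replicate alone. The gene table at hand is of release 6, so no gene and no DNA sequence is given. Computations used Python 3.11.15, numpy 2.4.6, pandas 2.3.3, scipy 1.17.1 and matplotlib 3.10.9, and the interval functions were checked on simulated lists.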

Additional observations from a re-analysis of the deposited data

How the results depend on the processing

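Chromosome 4 stayed above the 6 pooled heterochromatin sequences and above U in coverage under each alternative run, but not above each sequence. With the combined list, coverage was 27.6% on chromosome 4, 3.70% on the 6 heterochromatin sequences and 1.86% on U; with clusters at or above the median score 14.3%, 2.18% and 0.738%; with clusters of at least 2 kb 18.8%, 2.43% and 0.924%. Over the length from first to last cluster it was 4.11% on the heterochromatin sequences together and 1.34% on U; there XHet had 41.8%, YHet, with 1 cluster per replicate, 98.99% and 2LHet 10.8%, against 22.02% on chromosome 4. The score and width minimums hold fewer clusters and the last alternative a shorter length, so the direction of those moves follows from their construction. The combined list holds more clusters, and how it was made is not given. With it, coverage of chromosome 4 was 1.72 times that of the 4 long autosomal arms, against a mean of 1.52 in the replicate lists. The cause of this rise was not tested. The highest and lowest 100 kb windows had 43.5% and 9.63% with the combined list; with the score and width minimums the highest was window 11, not 13, with 24.5% and 27.9%. With 50 kb windows the extremes were 51.8% and 0%. The difference between the centromere-side and distal parts, -0.0716 percentage points, was 1.58 with the combined list and -2.77 with the score minimum, so its direction is not settled. The share of clusters matched between replicates, as the mean of both directions, rose with the score minimum to 92.7% on chromosome 4 and 96.7% on the heterochromatin sequences but was 66.7% on U; with the width minimum it was 88.6% on chromosome 4 and 81.8% on U. Combined clusters found in both replicates were 75.5% and 83.0% with the score minimum on chromosome 4 and the heterochromatin sequences but 32.1% on U, and 73.6%, 77.8% and, on U, 59.1% with the width minimum. They were 67.0%, 68.2% and 54.7% among combined clusters at least as wide as the narrowest replicate cluster, an alternative added after seeing the data. Mean width in the combined list was 3334 bp on the heterochromatin sequences and 2257 bp on U. The median gap on chromosome 4 was 5209 bp with the combined list, 12644.75 bp with the width minimum and 10311 bp with close clusters joined. The causes of moves in matching were not tested.

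Without replicate 1 or replicate 2 in turn, coverage was 19.7% to 22.2% on chromosome 4, 2.55% to 2.95% on the heterochromatin sequences and 1.20% to 1.21% on U. The highest window ranged from 30.3% to 34.965%, the lowest from 5.60% to 6.62% and the difference between parts from -1.18 to 1.04 percentage points. Mean widths were 3213 to 3708, 3388 to 3646 and 2402 to 2472 bp, median percentiles 47.5 to 53.6, 61.8 to 63.5 and 52.6 to 53.7, in the same order, and the median gap 8817.5 to 9341.5 bp. Single sequences and windows moved up with the combined list in 19 cases and with the first-to-last length in 5, and down with the score minimum in 17 and the width minimum in 9. No paired analysis was possible because no list of input clusters was used, which leaves 1 group. Unknown depth limits statements on weak clusters.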
